A study of Mus musculus with 20 samples.

Results

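Genes of the liver's macrophages were followed in whole livers of wild-type (WT) mice in which HuR, the RNA-binding protein encoded by Elavl1, had been knocked down. The set held 10 genes, found by their exact symbol among the 55335 genes of the WT mouse table. Clec4f, Vsig4, Marco, Cd5l and Timd4 were taken as markers of resident Kupffer cells, and Adgre1, Cd68, Csf1r, C1qa and C1qb as general macrophage markers. The question was whether HuR knockdown changed the level of either group, and whether the resident markers changed apart from the general ones.

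The WT livers came from male C57BL/6 mice that were bought at 8 weeks of age and kept for 10 to 14 days before the experiment. In 6 mice an adenovirus carrying an shRNA against mouse HuR was injected intravenously (HuR KD), and 6 mice received a LacZ control virus, both at 2000000000 pfu. All mice were killed on day 7 after a 4 h fast, and total RNA of whole liver was sequenced. Both groups thus carried an adenovirus, and no mouse without a virus was analysed here. The series holds 20 livers in all, the other 8 being livers of humanized mice, 4 with knockdown and 4 controls.

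Kupffer cells are the resident macrophages of the liver, lying within the sinusoids, where they clear bacteria, old red cells and debris from portal blood. Most macrophages depend on signalling through the CSF1 receptor, and they carry general phagocyte genes such as those of lysosomes and of the complement component C1q. A smaller set of genes, among them Clec4f, Vsig4, Cd5l and Timd4, is turned on as a cell takes up the resident Kupffer identity. Monocytes that enter the liver are slow to turn on Timd4 and carry other markers. In whole liver RNA, fewer cells of a type and less RNA of a gene in each cell cannot be told apart.

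Many genes of myeloid cells are bound by the transcription factor PU.1, whose target sites commonly hold the core letters GAGGAA. These letters were looked for on both strands of RefSeq promoters (GRCm38.p6, 250 bases before to 50 bases after the start of a gene). A promoter was listed for 7 of the 10 genes (not for Adgre1, C1qa and Csf1r), and 5 of these 7 held the letters. Across all 32851 promoters listed, 28.3% held them, and across the 27025 gene symbols 31.3% did. The matches that lie before the start site are printed 5′ to 3′ on the minus strand, with the motif in capitals, to show the letters around each match. Each line names the gene, with the 30 bases around its match.
Cd5l: tcagcatggccaGAGGAAgggaggtgactg
C1qb: gcagcaggatggGAGGAAcagaggggtgat
Cd68: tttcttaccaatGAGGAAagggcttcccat
Marco: tgaagtgggtcaGAGGAAgatttcctgggg
Vsig4, far: tcctagtagaatGAGGAAcagtttcaccca
Vsig4, near: ggggaagtgtgtGAGGAAactaggattctg

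The Cd5l match is at chr3:87357803-87357832 and its motif begins 66 bases before the start site, on the strand opposite to the gene. The C1qb match is at chr4:136886213-136886242, 30 bases before the start. The Cd68 match is at chr11:69666378-69666407, 225 bases before the start. All of these are places in the sequence, not measured binding. The Marco match is at chr1:120505153-120505182, 146 bases before the start. The Vsig4 promoter held 2 matches, at chrX:96293576-96293605 and chrX:96293474-96293503, which are 155 and 53 bases before the start. Clec4f and Timd4 held no match in this window, which says only that these letters are not in it. Of the genes that held the letters, Cd5l, Cd68 and C1qb passed the test below and Marco and Vsig4 did not. Of those that did not hold them, Clec4f passed and Timd4 was too low for the test. Whether the letters go with a change was not tested, and 7 genes are too few to tell.

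Levels are given as TPM (transcripts per 1000000, a level per unit of transcript length, so that genes can be compared with each other). Whole reads per gene could be recovered from the steps of the low TPM values. They gave 29791822 to 38031319 reads on genes in 5 HuR KD livers and 33080845 to 44675254 in 5 LacZ livers, but only 12962463 in HuR KD replicate 6 and 1424348 in LacZ replicate 2. These 2 shallow livers also stood apart in expression. Their median correlation with the livers of their own group was 0.958 and 0.925, against 0.981 to 0.987 for the other 10. The tests of the 9 genes and the counts by list were therefore also computed without both, an alternative chosen after seeing the data. Elavl1 was at 4.91 ± 0.694 TPM (SD, n = 6) in HuR KD livers and 9.50 ± 0.789 in LacZ livers, and no HuR KD liver reached the lowest LacZ liver.

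Of the 10 genes, 9 had a mean of at least 1 TPM over the 12 livers and entered the test across 15090 genes (limma on log2(TPM + 1)). All 9 had lower means in HuR KD livers, as did Timd4, which was too low for the test. At an unadjusted p under 0.05, the threshold of the study's methods, Clec4f, Cd5l, Adgre1, Cd68 and C1qb fell, which is 5 of 9 against a background of 6.94% of all genes called lower, 9.09% called higher and 16.0% called in either direction. After Benjamini-Hochberg adjustment over all genes, 0 of 9 passed in limma, against 0.888% of all genes. In all 10 genes the groups overlapped in at least 1 liver, while 1.23% of all genes were lower and 1.25% higher without overlap. The median log2 difference over the 10 genes was -0.37, beside a median of 0.03 over all genes tested, of which 43.2% lay below 0.

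**Figure D1:**
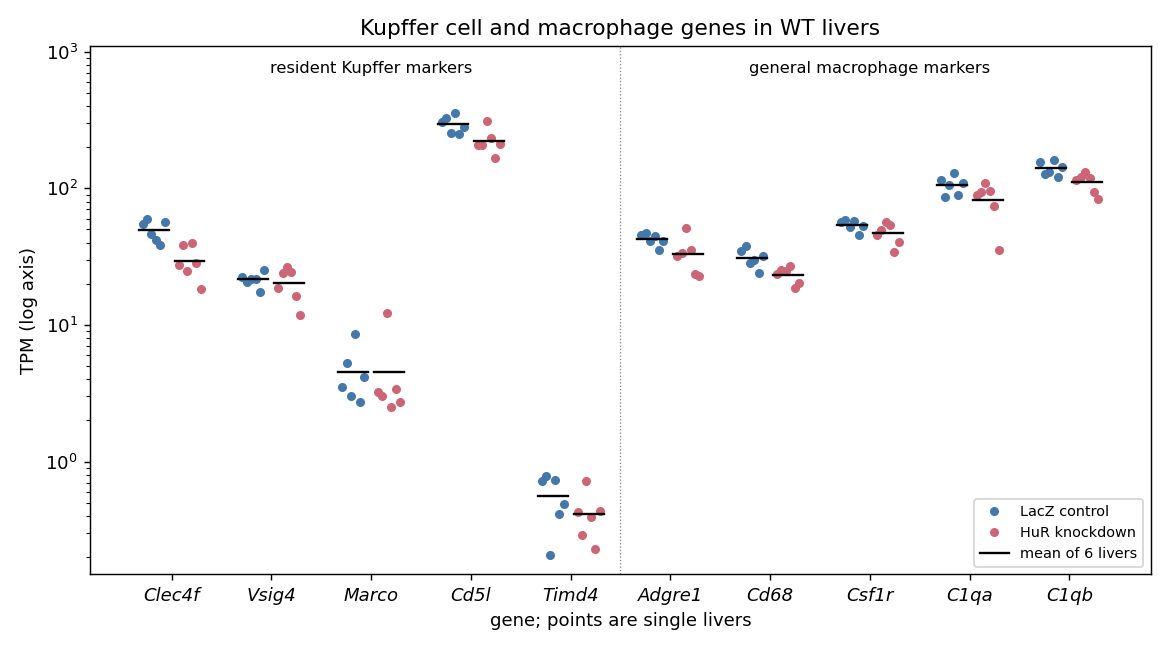
TPM (log axis) of the 10 genes in each WT liver, with LacZ livers in blue, HuR KD livers in red and a bar at the mean of 6 livers. Clec4f shows the clearest separation, with 5 of 6 HuR KD livers below all LacZ livers, while Vsig4 and Marco are mixed.

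Among the resident markers, Clec4f, a C-type lectin that in mouse is found almost exclusively on Kupffer cells, moved the furthest on the log2 scale. The gene (ENSMUSG00000014542.3) spans 83644542 to 83656187 of chromosome 6 (GRCm38), minus strand. Its lowest, median and highest TPM were 18.5, 27.9 and 39.9 in HuR KD livers and 38.4, 50.3 and 59.7 in LacZ livers. Only HuR KD replicate 4, at 39.9 TPM, reached the LacZ range, and it overlapped with LacZ replicate 5 alone. Mean Clec4f was 29.5 ± 8.16 TPM in HuR KD livers, 59.7% of the 49.5 ± 8.56 TPM in LacZ livers (SD, n = 6 each). The log2 fold change was -0.75 ± 0.17 (SE), with an unadjusted p of 0.000893, an adjusted p of 0.0613 in limma, and a two-sided exact permutation p of 0.00433. The unadjusted p stayed between 0.000217 and 0.00276 under every alternative computed, and the fold change without both shallow livers was -0.57. The adjusted p, however, was under 0.05 in limma with 5 of these alternatives, whose values are given in the closing section.

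Cd5l, which encodes a scavenger protein that macrophages secrete into blood, was the most abundant of the 10 genes. The gene (ENSMUSG00000015854.7) lies on the plus strand of chromosome 3 from 87357881 to 87371073. Its lowest, median and highest TPM were 168 (167.6), 208 (208.3) and 311 (310.7) in HuR KD livers and 250 (250.4), 293 (292.9) and 356 (355.5) in LacZ livers. HuR KD replicate 3 lay inside the LacZ range, and the other 5 HuR KD livers lay below it. The mean fell to 75.2% of the LacZ level, from 296 ± 42.1 to 222 ± 48.2 TPM (SD, n = 6). The log2 fold change was -0.42 ± 0.13 (SE), with limma p 0.00817, adjusted p 0.151 and exact permutation p 0.0238. Without HuR KD replicate 3 the change was -0.52 and the adjusted p in limma 0.0440, so this single liver decided whether Cd5l passed after adjustment. The share of all genes that passed after adjustment also rose without it, to 1.66% from 0.888%.

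Vsig4, the complement receptor CRIg by which Kupffer cells capture opsonised bacteria, showed no such separation. Vsig4 had lowest, median and highest TPM of 11.8, 21.5 and 26.4 in HuR KD livers and 17.6, 21.8 and 25.4 in LacZ livers. HuR KD replicate 3 was the highest of all 12 livers and HuR KD replicate 6 the lowest, so that the HuR KD range spanned the LacZ range. The means were 20.3 ± 5.66 and 21.6 ± 2.57 TPM (SD, n = 6), a log2 difference of -0.12 with limma p 0.484 and exact permutation p 0.554. Without HuR KD replicate 6 the sign turned, to 0.02. The locus (ENSMUSG00000044206.3) is on chromosome X, from 96247203 to 96293438 on the minus strand.

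Marco, a scavenger receptor for bacteria and particles, was low in most livers of both groups. The lowest, median and highest TPM were 2.49, 3.11 and 12.2 in HuR KD livers and 2.74, 3.85 and 8.55 in LacZ livers. The highest value of each group stood apart, HuR KD replicate 3 at 12.2 TPM against at most 3.39 in the other 5, and LacZ replicate 4 at 8.55 TPM. Both rested on more than a few reads, 348 and 249, whereas the 5.29 TPM of LacZ replicate 2 rested on 6 reads (95% Poisson interval 1.94 to 11.5 TPM, counting error only). The means of 4.51 ± 3.79 and 4.55 ± 2.16 TPM (SD, n = 6) did not differ beyond their spread (log2 difference -0.12, limma p 0.714, exact permutation p 0.701). Leaving out HuR KD replicate 3 gave -0.41 and leaving out LacZ replicate 4 gave 0.05, so the direction depended on single livers. The gene (ENSMUSG00000026390.7) spans 120474538 to 120505024 of chromosome 1, minus strand.

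Timd4, a receptor for phosphatidylserine on dying cells that marks long-resident macrophages, was at 0.415 ± 0.168 TPM in HuR KD livers and 0.557 ± 0.224 TPM in LacZ livers (SD, n = 6). Its range of 0.231 to 0.716 TPM in HuR KD livers lay inside the LacZ range of 0.208 to 0.780 TPM. It had 1 to 24 reads in a liver, and no difference was detected (exact permutation p 0.251). The gene (ENSMUSG00000055546.6) spans 46810800 to 46844332 of chromosome 11, plus strand.

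The general markers were closer to each other in the size of their difference. Adgre1 encodes F4/80, the surface receptor most used to stain mouse macrophages (ENSMUSG00000004730.15, chromosome 17, 57358691 to 57483527, plus strand). Its lowest, median and highest TPM were 22.7, 32.9 and 50.8 in HuR KD livers and 35.1, 43.1 and 47.1 in LacZ livers. The highest liver of all was HuR KD replicate 3, while 4 HuR KD livers were below every LacZ liver. The mean fell from 42.5 ± 4.41 to 33.0 ± 10.2 TPM (SD, n = 6), with a log2 fold change of -0.40 ± 0.16 (SE), limma p 0.0308 and adjusted p 0.257. The exact permutation p was 0.0541. The call was lost when HuR KD replicate 5 or 6 or LacZ replicate 1, 2 or 4 was left out, and without both shallow livers (log2 -0.27, limma p 0.118).

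Cd68, a glycoprotein of macrophage lysosomes (ENSMUSG00000018774.13, chromosome 11, 69664213 to 69666153, minus strand), had a narrower spread. In TPM, the lowest, median and highest livers were at 18.6, 24.1 and 27.0 in HuR KD livers and 23.9, 30.8 and 37.8 in LacZ livers. HuR KD replicates 1, 5 and 6 lay below all LacZ livers, and the others overlapped with LacZ replicate 5. The mean fell from 31.1 ± 4.86 to 23.3 ± 3.22 TPM (SD, n = 6), a log2 fold change of -0.40 ± 0.12 (SE) with limma p 0.00440, adjusted p 0.114 and exact permutation p 0.0108. Unlike the other general markers, Cd68 was not highest in HuR KD replicate 3 among the HuR KD livers, and it stayed called without both shallow livers at -0.31.

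Csf1r encodes the receptor through which CSF1 and IL-34 keep macrophages alive. It lies on chromosome 18 from 61100598 to 61132149 (ENSMUSG00000024621.16), plus strand. Csf1r had lowest, median and highest TPM of 34.5, 47.5 and 56.9 in HuR KD livers and 45.7, 55.1 and 58.4 in LacZ livers. HuR KD replicates 1, 5 and 6 were below all LacZ livers and the other 3 were inside the LacZ range. The means were 46.9 ± 8.47 and 54.0 ± 4.84 TPM (SD, n = 6), a log2 difference of -0.22 ± 0.11 (SE) that did not pass (limma p 0.0825, adjusted p 0.395, exact permutation p 0.104). It did pass the unadjusted threshold in limma without HuR KD replicate 3 (p 0.0302), HuR KD replicate 4 (p 0.0468) or LacZ replicate 5 (p 0.0454). Csf1r overlaps Mir6983 and, on the opposite strand, Hmgxb3, the more abundant at a mean of 6.48 TPM. How overlaps and strand were treated in the counting is not given in the sources used here. The other 9 genes overlap no annotated gene.

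C1qa and C1qb encode chains of C1q, the recognition molecule of the classical complement pathway, which tissue macrophages make. They form a cluster with C1qc on chromosome 4, all on the minus strand. C1qb (ENSMUSG00000036905.8) runs from 136880129 to 136886187, C1qc (ENSMUSG00000036896.5) from 136889804 to 136893065 and C1qa (ENSMUSG00000036887.5) from 136895917 to 136898803. C1qb had lowest, median and highest TPM of 83.6, 117 (117.3) and 132 (132.4) in HuR KD livers and 120 (120.4), 138 (137.7) and 161 (161.3) in LacZ livers. Of the HuR KD livers, 4 lay below all LacZ livers, and replicates 2 and 3 lay inside the LacZ range. Its mean fell from 140 ± 16.7 to 111 ± 18.5 TPM (SD, n = 6), a log2 fold change of -0.34 ± 0.12 (SE) with limma p 0.0119, adjusted p 0.173 and exact permutation p 0.0195.

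C1qa had lowest, median and highest TPM of 35.4, 91.2 and 109 (108.5) in HuR KD livers and 86.4, 107 (107.1) and 129 (128.8) in LacZ livers. HuR KD replicate 6, at 35.4 TPM, was far below the next HuR KD liver at 74.2 TPM, and 4 HuR KD livers lay inside the LacZ range. The means of 82.8 ± 25.7 and 106 ± 15.9 TPM (SD, n = 6) gave a log2 difference of -0.42 ± 0.23 (SE), with limma p 0.0900, adjusted p 0.408 and exact permutation p 0.0844. Without HuR KD replicate 6 the difference was -0.19 (limma p 0.125), and without both shallow livers it was -0.25 and passed the unadjusted threshold (limma p 0.0472). C1qc, the remaining chain and not one of the 10 genes, fell from 75.8 ± 12.9 to 55.6 ± 12.7 TPM (SD, n = 6; log2 -0.46, limma p 0.0134, adjusted p 0.180). All 3 chains thus had lower means in HuR KD livers, and C1qb and C1qc passed the unadjusted threshold.

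**Figure D2:**
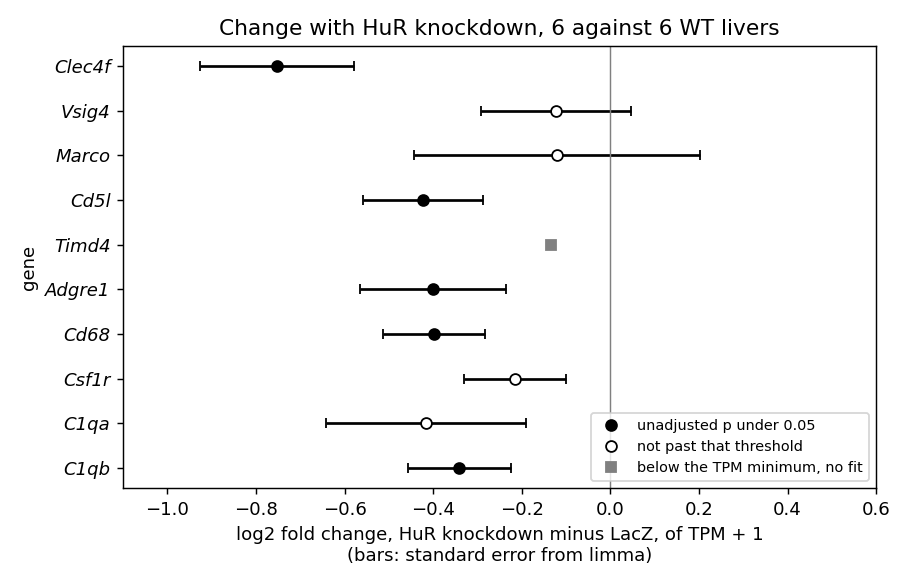
Log2 fold change of TPM + 1 (HuR KD minus LacZ, 6 against 6 livers) for each gene, with bars of 1 standard error from limma, filled where the unadjusted p was under 0.05. All 10 values lie below 0, from -0.75 for Clec4f to -0.12 for Marco, and the square for Timd4 is a difference of means with no fit.

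Set side by side, the mean of each group of markers was lower in HuR KD livers. With all 5 markers of each group included, the amounts differed little against the spread between livers. The median log2 difference was -0.13 over the 5 resident markers, where the values ran from -0.75 to -0.12, and -0.40 over the 5 general markers, where they ran from -0.42 to -0.22. The resident median was the value of Timd4, which lies below the TPM minimum, and it was -0.32 with a pseudocount of 0.1, -0.25 with voom on recovered reads and -0.27 over the 4 tested genes. Without HuR KD replicate 3 the resident median was -0.41, and without HuR KD replicate 6 the general median was -0.26. Averaged within each liver on the log2(TPM + 1) scale, the resident markers were at 3.96 ± 0.285 in HuR KD livers and 4.27 ± 0.204 in LacZ livers (SD, n = 6), a difference of -0.31. The general markers were at 5.66 ± 0.313 and 6.01 ± 0.144, a difference of -0.35. The resident mean minus the general mean was -1.70 ± 0.129 in HuR KD livers and -1.74 ± 0.110 in LacZ livers. The difference between the groups, 0.04, was smaller than either SD. Its sign turned with a pseudocount of 0.1, to -0.001. These means are over the chosen genes and carry no test. The resident mean leans on Clec4f (log2 -0.75) and Cd5l (-0.42), since Vsig4, Marco and Timd4 were at -0.12, -0.12 and -0.13. Each of these 3 differed less than any general marker, of which the smallest difference was -0.22. The value of 0.04 therefore holds only with Clec4f included. Without Clec4f, the most lowered marker, it would be larger, by an amount that was not computed.

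**Figure D3:**
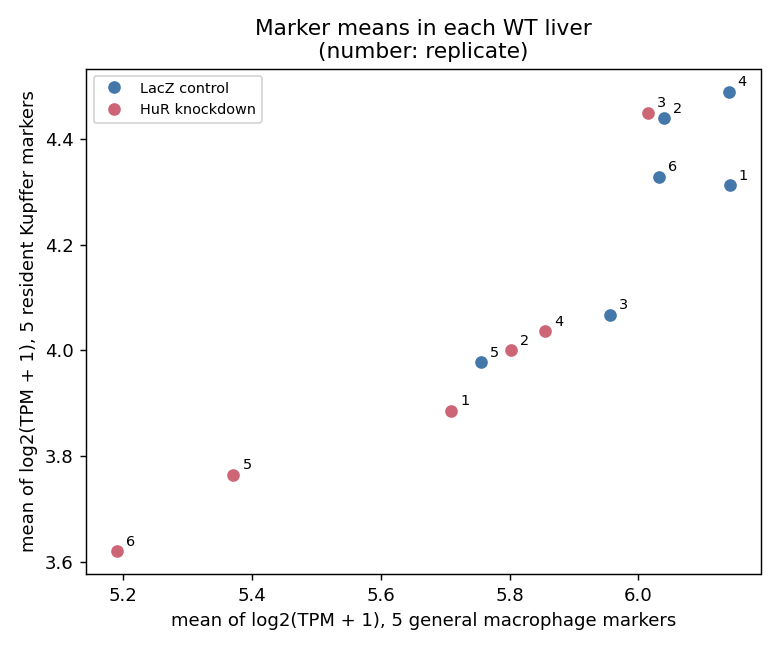
Mean log2(TPM + 1) of the 5 general macrophage markers (horizontal) and of the 5 resident Kupffer markers (vertical) in each WT liver, numbered by replicate. HuR KD replicates 5 and 6 are lowest on both axes, and HuR KD replicate 3 lies among the LacZ livers.

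Single livers moved on many of these genes at once. HuR KD replicate 3 was the highest HuR KD liver for 8 of the 10 genes (Vsig4, Marco, Cd5l, Timd4, Adgre1, Csf1r, C1qa and C1qb), but for Clec4f it was the second lowest. HuR KD replicate 6 was the lowest for 5 genes (Clec4f, Vsig4, Adgre1, C1qa and C1qb), and HuR KD replicate 5 was the lowest for 4. In the LacZ group, replicate 5 was the lowest for 8 of the 10. LacZ replicate 2 was the highest LacZ liver for 5 genes but the lowest for C1qa, and HuR KD replicate 4 was the highest HuR KD liver for Clec4f and Cd68 but the lowest for Marco. The ranks of LacZ replicate 2 are uncertain, since this shallow liver had 1 read for Timd4 and 28 for Cd68. Its C1qa value rested on 53 reads (95% Poisson interval 64.7 to 113 TPM, counting error only).

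Ratios between these genes in each liver describe this further. They were chosen after the values were seen, so no test is given. Clec4f over Csf1r was 0.637 ± 0.164 in HuR KD livers and 0.915 ± 0.123 in LacZ livers (SD, n = 6). Clec4f over Vsig4 ran from 0.936 to 1.72 in HuR KD livers and from 1.94 (1.935) to 2.90 in LacZ livers, without overlap. Clec4f was thus lower relative to Vsig4 in every HuR KD liver than in any LacZ liver. This holds for Vsig4 as the chosen partner. With Csf1r the groups overlapped, at up to 0.819 in HuR KD livers and from 0.725 in LacZ livers. They also overlapped with Cd5l, which itself had a lower mean in HuR KD livers (log2 -0.42). HuR KD replicate 2 had Clec4f at 38.2 TPM and Cd5l at 206 (205.6) TPM. LacZ replicate 4 had Clec4f at 42.0 (41.95) TPM and Cd5l at 356 (355.5) TPM. Clec4f was thus higher relative to Cd5l in that HuR KD liver than in that LacZ liver. Marco over Csf1r was 0.0930 ± 0.0622 in HuR KD livers and 0.0828 ± 0.0342 in LacZ livers (SD, n = 6). C1qa over C1qb was 0.424 in HuR KD replicate 6 and 0.685 to 0.820 in the other 11 livers.

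**Figure D4:**
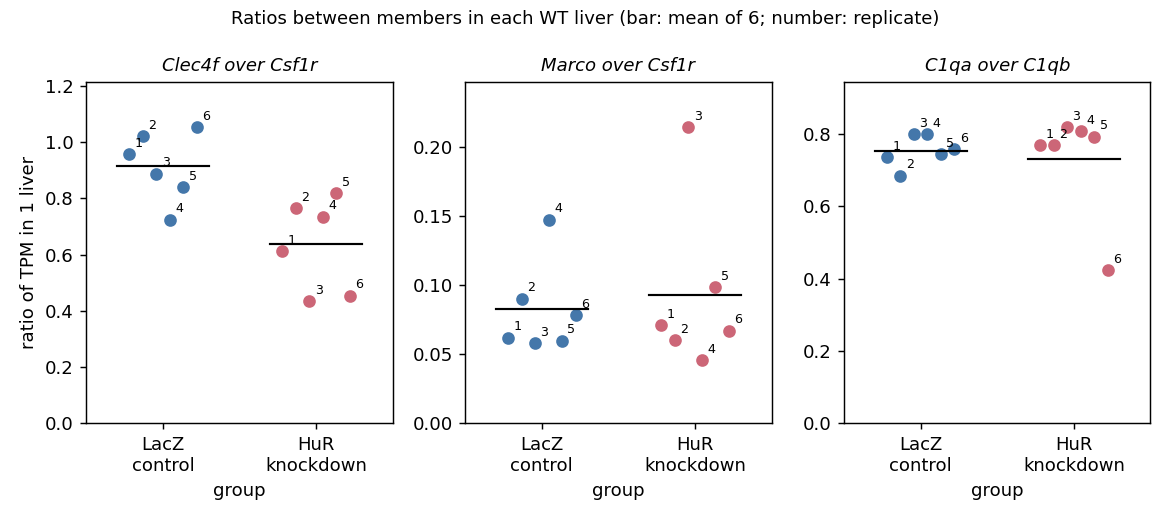
Ratios of TPM within each WT liver, with LacZ livers in blue, HuR KD livers in red, a bar at the mean of 6 and the replicate number beside each point. Clec4f over Csf1r is lower in HuR KD livers with overlap, Marco over Csf1r is high in HuR KD replicate 3 at 0.215, and C1qa over C1qb is low in HuR KD replicate 6 at 0.424.

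By mean TPM in LacZ livers the order was Cd5l, C1qb, C1qa, Csf1r, Clec4f, Adgre1, Cd68, Vsig4, Marco and Timd4. Neighbours whose ranges over the 6 LacZ livers overlapped were C1qb and C1qa, Csf1r and Clec4f, Clec4f and Adgre1, Adgre1 and Cd68, and Cd68 and Vsig4. Clec4f was above Adgre1 in 5 of 6 LacZ livers and in 3 of 6 HuR KD livers. Csf1r was above Clec4f in 4 of 6 LacZ livers and in all 6 HuR KD livers. The order of the most and the least abundant genes was the same in all 12 livers, with Cd5l above C1qb and Marco above Timd4.

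A list of other Kupffer cell genes was set beside the 10. Of its 14 genes, 13 were tested, and 6 were called lower, 1 higher and 6 not called, with a median log2 fold change of -0.27. For this and the following lists, the background over all genes tested was 6.94% called lower, 9.09% called higher and 43.2% below 0. Id3, a transcriptional regulator needed for Kupffer cell development, fell from 57.8 ± 21.2 to 29.2 ± 6.69 TPM (SD, n = 6; log2 -0.91, limma p 0.00153, adjusted p 0.0767). Slc40a1, the iron exporter ferroportin, fell from 71.5 ± 9.95 to 56.8 ± 7.57 TPM (log2 -0.33, limma p 0.0111, adjusted p 0.169). Id3 and Slc40a1 are also expressed by other liver cells. Cd207, a C-type lectin better known from Langerhans cells, went the other way, from 6.54 ± 2.49 to 11.6 ± 3.90 TPM (log2 0.75, limma p 0.0113, adjusted p 0.170), with 4 HuR KD livers above all LacZ livers. Without both shallow livers 2 genes of this list were called lower.

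Of 20 other general macrophage genes, all tested, 8 were called lower and 0 higher, 18 lay below 0, and the median was -0.33. Fcgr1, the high-affinity receptor for IgG, fell from 12.0 ± 4.42 to 6.28 ± 1.59 TPM (SD, n = 6; log2 -0.81, limma p 0.00179, adjusted p 0.0818). Its groups did not overlap, with HuR KD livers up to 7.72 TPM and LacZ livers from 8.22 TPM (exact permutation p 0.00217, the smallest that 6 against 6 livers can give). Over all genes tested, 1.23% were lower without overlap. Ctss, a lysosomal protease of antigen presenting cells, fell from 161 (161.4) ± 25.5 to 115 ± 27.7 TPM (log2 -0.51, limma p 0.00982, adjusted p 0.161). Leaving out HuR KD replicate 5 gave 5 genes called lower, and leaving out LacZ replicate 1, 4 or 6 gave 4. With both shallow livers left out, 6 were called lower.

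Monocytes and the macrophages that arise from them carry genes of their own. Of 12 such genes, 7 were tested, with 3 called lower and 1 higher and a median of -0.32. Ly6c2, the antigen of inflammatory monocytes, fell from 1.66 (1.655) ± 0.546 to 0.788 ± 0.295 TPM (SD, n = 6; log2 -0.56, limma p 0.00510, adjusted p 0.121). Plac8 fell from 23.7 ± 5.50 to 14.6 ± 4.99 TPM (log2 -0.72, limma p 0.0113, adjusted p 0.170). Cd9, a tetraspanin found on many cell types, rose from 7.80 ± 1.49 to 9.67 ± 0.801 TPM (log2 0.29, limma p 0.0182, adjusted p 0.205).

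Of genes for the ligands of the CSF1 receptor and for macrophage survival, 5 of 6 were tested, and 0 were called lower and 1 higher in limma, with a median of -0.02. That gene was Il34, a ligand of the receptor, at 3.04 ± 0.572 TPM against 2.36 ± 0.316 TPM (SD, n = 6; log2 0.26, limma p 0.0344, adjusted p 0.266). Its call was lost under 8 of the alternatives, among them each single omission of HuR KD replicate 1, 4 or 6 or LacZ replicate 1 or 5.

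Of 18 activation and cytokine genes 15 were tested, all 15 lay below 0, 3 were called lower and 0 higher, and the median was -0.31. Il18, an inflammasome cytokine, fell from 34.2 ± 8.09 to 23.8 ± 3.75 TPM (SD, n = 6; log2 -0.49, limma p 0.00744, adjusted p 0.145). Tlr4, the receptor for bacterial lipopolysaccharide, fell from 5.13 ± 0.662 to 3.77 ± 0.790 TPM (log2 -0.37, limma p 0.00962, adjusted p 0.160). Slc11a1, a metal transporter of the phagosome, fell from 11.8 ± 1.80 to 9.30 ± 1.18 TPM (log2 -0.31, limma p 0.0120, adjusted p 0.173). In none of these lists did a gene pass after adjustment.

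**Figure D5:**
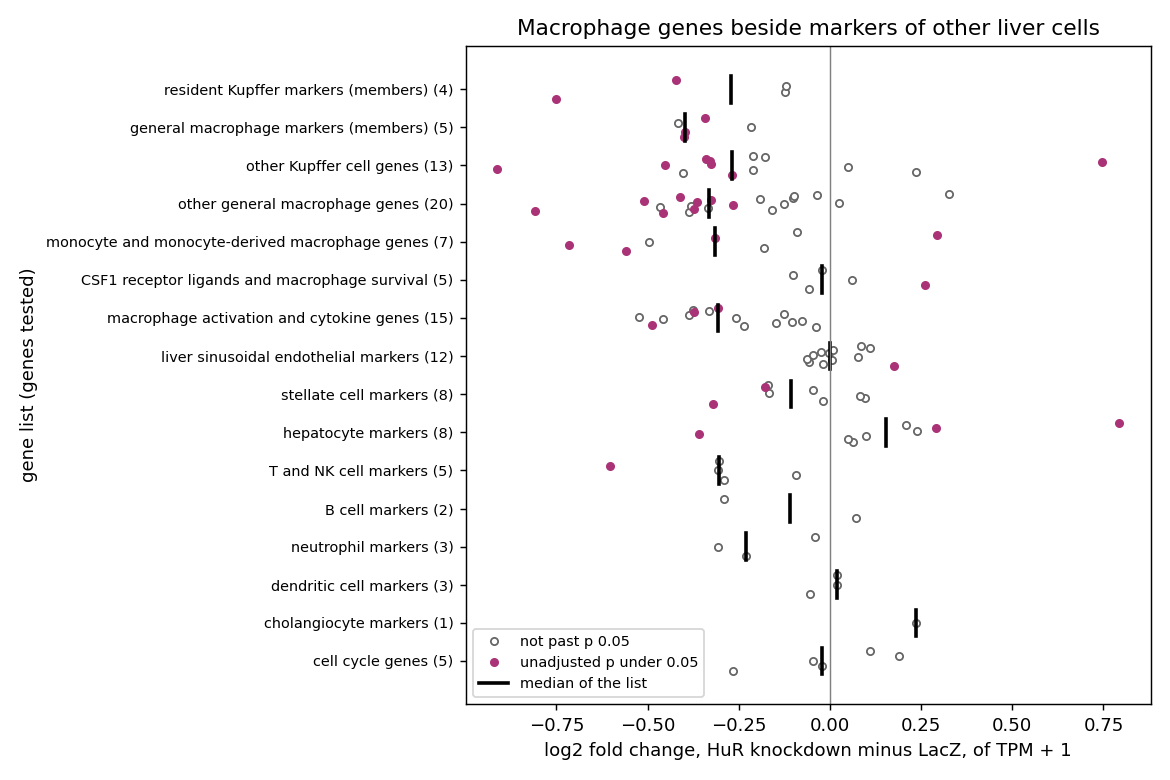
Log2 fold change of TPM + 1 (HuR KD minus LacZ) of each tested gene by list, with the number tested in brackets, filled points at unadjusted p under 0.05 and a bar at the median of the list. The other general macrophage genes lie below 0 in 18 of 20 cases, and the 12 sinusoidal endothelial markers lie around 0 with a median of 0.00.

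Markers of the other cells of the liver were set beside these. The 12 markers of liver sinusoidal endothelial cells, which line the vessels in which Kupffer cells sit, summed to 263 (262.9) to 321 (321.4) TPM in HuR KD livers and 255 (254.8) to 319 (319.4) TPM in LacZ livers, with 0 called lower and 1 higher (Stab2, log2 0.18, limma p 0.0459). The Stab2 call was lost with median-of-ratios factors (limma p 0.102) and with most single livers left out. Of 8 stellate cell markers, summing to 208 (208.4) to 260 (260.2) and 215 (214.9) to 280 (280.3) TPM, Lrat and Colec11 were called lower (log2 -0.32 and -0.18) and 0 higher, and 0 to 3 were called lower with 1 liver left out. Of 8 hepatocyte markers, summing to 85860 to 97170 and 80670 to 93200 TPM, Cyp2e1 fell (log2 -0.36) and G6pc and Pck1 rose (log2 0.79 and 0.29). The groups did not overlap for Cyp2e1 (limma p 0.00187, adjusted p 0.0830, exact permutation p 0.00217), while they did for G6pc and Pck1. A fall without overlap was thus also seen outside the macrophage genes. Lymphocyte genes were scarce, and their sums overlapped between the groups.

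The 5 tested of 10 T and NK cell markers all lay below 0 with a median of -0.31, and the list summed to 8.01 to 15.1 TPM in HuR KD livers and 11.4 (11.35) to 21.4 TPM in LacZ livers. The cytotoxic protease gene Gzmb was called lower (log2 -0.60, limma p 0.0123). The sums of B cell markers were 4.24 to 6.60 and 4.12 to 7.26 TPM, those of neutrophil markers 6.82 to 12.3 and 6.63 to 21.0 TPM, and those of dendritic cell markers 8.51 (8.505) to 11.1 and 8.47 to 10.9 TPM. Cholangiocyte markers summed to 2.92 to 3.60 and 1.86 to 3.36 (3.355) TPM, and cell cycle genes to 5.99 to 16.6 and 6.43 to 17.2 TPM. In these 5 lists 0 genes were called by limma at the unadjusted or the adjusted threshold. The 5 tested T and NK cell markers lay in the same direction as the macrophage genes, and their part in the macrophage result was not tested. The markers below the TPM minimum were mixed. Cd3d, Cd3e and Ncr1 lay above 0 (log2 0.10, 0.04 and 0.05), and Cd3g and Klrb1c below (log2 -0.11 and -0.13).

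Across the 12 livers, with the group means removed, the genes most like the resident mean were Cfp, Spic, C1qc, Cd14 and Lyz2. Their Pearson r ran from 0.967 for Cfp, the complement factor properdin, to 0.908 for Lyz2, lysozyme. Without HuR KD replicates 3 and 6, the livers farthest from the median, r was 0.921 for Cfp and 0.764 for Lyz2. The genes most like the general mean were Ppp1r9b (r 0.973), Arhgap15, Ctsc, Dock10 and Cd48 (r 0.941). These are values over the same 12 libraries, which differ in depth, and they describe likeness only. Lyz2, most abundant of the 5 genes closest to the resident mean, was at 126 (126.2) and 120 (120.2) TPM in HuR KD and LacZ livers, a log2 difference of 0.02 with limma p 0.895.

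For the humanized livers only human genes were read here, in a table normalised apart. According to the paper, the reads of these livers were aligned to a joint human and mouse reference. Human CLEC4F, VSIG4, MARCO, C1QA and C1QB were listed at 0 in all 8 livers. The human counterparts of the other 5 genes were listed above 0 in at most 2 of the 8, with CD5L the highest at 1.24 TPM in 1 liver. Human ALB was between 32380 and 73360 TPM in the same livers. Human CD14, whose mouse counterpart is among the other general macrophage genes, was between 47.1 and 96.1 TPM in all 8. The mouse macrophages of those livers were not analysed here.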

How the data were processed

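The authors trimmed the reads, aligned them with HISAT2, counted them with featureCounts (Subread) and deposited TPM. The sum of each library is 1000000. The sources used here give neither the TPM formula nor the strand setting of the counting. TPM were compared as log2(TPM + 1) with limma 3.58.1 in R 4.3.3 (lmFit, eBayes with trend), keeping genes whose TPM averaged 1 or more in the 12 WT livers, with Benjamini-Hochberg adjustment over the 15090 genes tested. A fold change on this scale understates the change of low genes. Two-sided exact permutation tests used all 924 groupings and cannot give a p below 0.00217. Each mouse gave 1 library.

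Reads were recovered with Python 3.11.15 from the steps of TPM and the gene lengths of GENCODE M21 (GRCm38) for 25110 of 25110 genes with values in at least 4 libraries, within 0.02 reads. The study's methods name GENCODE M23, which was not used here. Sets of 30 bases came from RefSeq promoters. Of 191 genes shifted in simulated data for this comparison (15069 genes, log2 shift 1.5), limma recovered 98.4% at the unadjusted threshold. It called 4.84% of unchanged genes. The shift of 1.5 was larger in size than the difference of any of the resident or general markers, which ran from -0.75 (Clec4f) to -0.12 (Marco). Recovery of differences as small as these was not tested, so the 98.4% does not apply to the markers that were not called.

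The 10 genes and the 14 other lists were chosen with earlier results of these data known. The named genes are Elavl1, the 10 genes, C1qc, up to 3 genes of each list with the smallest p among those called, and the 5 genes most like each mean. Lyz2 was singled out and the ratios were chosen after their values were seen. Alternatives were array weights, voom on recovered reads, quantile normalization, median-of-ratios factors, a replicate block, eBayes with no trend, a pseudocount of 0.1, a minimum mean of 5 TPM or none, and each liver left out.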

Additional observations from a re-analysis of the deposited data

Results flagged for a closer look

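Values that lay far from the other 5 livers of their group were looked for among 98 groups by the gap to the nearest liver over the range, where chance gives about 1 in 20. This found 10 groups, where 4.9 would be found by chance among independent groups chosen beforehand. The groups share livers and genes, and the ratios among them were chosen after their values were seen. No conclusion is therefore drawn from the 2 counts. Marco was at 12.2 TPM in HuR KD replicate 3, against 2.49 to 3.39 TPM in the other HuR KD livers. The same liver was high in Marco over Csf1r, at 0.215, and low in Clec4f over Vsig4, at 0.936. LacZ replicate 4 was high in Marco over Csf1r, at 0.148. In HuR KD replicate 6, C1qa over C1qb was 0.424, against 0.768 to 0.820 in the other HuR KD livers. LacZ replicate 2 was high in Fcgr1, at 20.3 TPM, and in C1qc over C1qb, at 0.717 (0.7165). LacZ replicate 1 was low in Il34, at 1.73 TPM. The reads on genes were low in LacZ replicate 2, at 1424348, and in HuR KD replicate 6, at 12962463. Both of these shallow livers appear among the flagged gene values as well, and their part in those values was not tested.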

How the results depend on the processing

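Clec4f, Cd5l, Cd68 and C1qb stayed called at the unadjusted threshold under every alternative. Of the 10 genes, 9 were tested, or 8 with a minimum mean of 5 TPM and 10 with none. The count called was 5 or 6 with all livers kept and 4 to 7 with 1 liver left out. The share of all genes called in either direction ran from 5.61% (no minimum) to 27.9% (array weights) and from 12.7% to 18.9%. C1qa was also called with array weights, without HuR KD replicate 3 and without both shallow livers, the last an alternative chosen after seeing the data, which gave 5 called. The count at adjusted p was 1 rather than 0 with array weights, a minimum mean of 5 TPM, median-of-ratios factors, quantile normalization and voom, in each case Clec4f (limma adjusted p 0.0266, 0.0416, 0.0297, 0.0352 and 0.0272), and 0 to 1 with 1 liver left out. More of all genes passed as well in these 5 settings, at 11.4%, 2.31%, 1.51%, 1.72% and 3.51% in the same order, against 0.888%. Array weights, which gave LacZ replicate 2 a weight of 0.139 and HuR KD replicate 6 one of 0.171, called 4205 genes of all, against 2418, and 67.9% of these were higher, against 56.7%. The resident median ran from -0.41 to -0.0945 with 1 liver left out and was -0.3244 with a pseudocount of 0.1 and -0.247 with voom, and the general median ran from -0.45 to -0.26. The resident minus general difference ran from 0.01 (0.0147) to 0.07 and turned to -0.001 with a pseudocount of 0.1. With 1 liver left out, Vsig4 ran from -0.2041 to 0.0165 and Marco from -0.41 to 0.05. Vsig4 turned to 0.0165 without HuR KD replicate 6 and 0.0048 without both shallow livers, and Marco to 0.0513 without LacZ replicate 4 and 0.0055 without both. The cause was not tested. Replicate numbers did not pair the livers (correlations of deviations -0.142 to 0.206, 2 of 6 highest with their own number). With a replicate block 6 of the 9 tested genes were called, Csf1r in addition, 0 of them after adjustment, and 2242 of all genes (14.9%). Depth limits Timd4 and Marco most, with 1 and 6 reads in LacZ replicate 2.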
